A study of Mus musculus with 10 samples.

Results

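Neural progenitor cells, abbreviated NPC in the deposited annotation, were taken as the cells to which the authors gave that class name. They numbered 4337 of 68914 annotated cells, were the sixth largest of 16 classes and fell into 3 clusters. Cluster 10 held 2139 cells, cluster 25 held 1508 and cluster 14 held 690. The study asked how brain cells respond to neurofilament light chain (NfL), a structural protein of the axonal skeleton, when it is supplied from outside. It used 10 libraries, all from male C57BL/6 mice of wild-type genotype aged 11 weeks, whose 2 hippocampi had been injected 3 days earlier. The whole protein (FL-NfL) was given to 3 mice and the coiled-coil form (CC-NfL) to 3, each at 1 mg/ml, and 4 mice were given vehicle alone. No unrelated protein was among the 3 injections, so a response to NfL and a response to any injected protein cannot be told apart.

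Neural progenitors are the dividing and newly committed cells from which neurons are made. In the adult rodent hippocampus they lie in the subgranular zone of the dentate gyrus, where radial glia-like stem cells give rise to intermediate progenitors, then to neuroblasts and at last to granule neurons. A second such niche lines the lateral ventricles. Neuroblasts are recognised by Dcx, which encodes the microtubule-associated protein doublecortin, and by Sox11 and Sox4, transcription factors of early neuronal differentiation. The deposited table gives a class, a cluster and a map position for each cell and holds no expression values. The class name was therefore not checked against these markers, and the clusters are called here by their numbers alone.

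Annotated cells numbered 3150 to 14141 per library and NPC 80 to 888, so counting error was small beside the full range of the NPC share. It was larger for clusters in libraries with few NPC, down to 7 cells of cluster 10 in CC-NfL library 2. Cells of batch b1 came from 6 libraries and those of batch b2 from 4, with every group in both batches. A single barcode sequence was shared by NPC of more than 1 library, and 534 were shared among all annotated cells. The first count needs every such cell to be NPC, which were 6.29% of annotated cells, so these counts are not directly comparable. The 3 libraries numbered 1, one of each group and all of batch b1, stood apart: they supplied 48.6% of all NPC but 18.0% of annotated cells. The treatment comparisons of the NPC share, of its clusters within NPC, of the neuronal lineage and of the map are therefore given with and without them. The labels do not say what the replicate number stands for.

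NPC made up a share of cells that differed more between mice of one group than between groups. They were 13.5%, 2.54% and 5.61% of annotated cells in FL-NfL libraries 1 to 3 and 20.5%, 2.52% and 5.88% in CC-NfL libraries 1 to 3, against 16.8%, 2.71%, 1.82% and 2.98% in vehicle libraries 1 to 4. In each group the library numbered 1 was the highest, and the 3 groups overlapped. Exact binomial 95% intervals, which cover counting error alone, ran from 12.5% to 14.6% for FL-NfL library 1 and from 1.57% to 2.11% for vehicle library 3, the lowest. Means were 7.23% ± 5.67 after FL-NfL, 9.65% ± 9.58 after CC-NfL and 6.06% ± 7.14 after vehicle (SD, n = 3, 3 and 4). The highest share was 11.3 times the lowest.

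**Figure D1:**
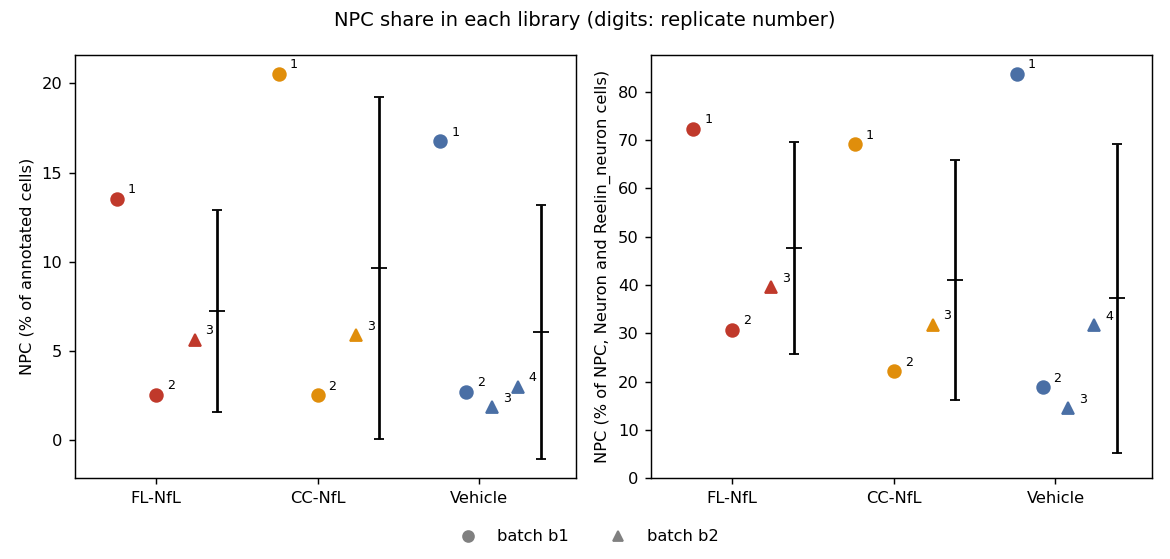
Each point is 1 library, with its replicate number, its batch as the symbol, and the mean ± SD of the group as a black bar. The left panel gives NPC as a percentage of annotated cells and the right panel as a percentage of NPC, Neuron and Reelin_neuron cells together. In both panels the library numbered 1 is the highest of each group, at 13.5% (FL-NfL), 20.5% (CC-NfL) and 16.8% (vehicle) of annotated cells.

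Set against the treatments, the NPC share passed no test. Log2 odds were fitted in limma over all 16 classes with group and batch as terms, and p-values were adjusted over the classes by the Benjamini-Hochberg method. FL-NfL against vehicle gave a log2 odds ratio of 0.42 (SE 1.04, adjusted p = 0.993). Its 95% interval ran from -1.95 to 2.79, from odds 3.88 times lower to 6.94 times higher, so a change of several fold in either direction was not detectable with these mice. CC-NfL against vehicle gave 0.68 (SE 1.04, adjusted p = 0.848), with an interval of -1.69 to 3.05. The proteins differed from each other by -0.26 (FL-NfL over CC-NfL, SE 1.10, adjusted p = 0.918, interval -2.77 to 2.25). Both proteins together against vehicle gave 0.55 (SE 0.88, adjusted p = 0.884, interval -1.46 to 2.56). NPC were thus not among the classes that limma called, namely 2 of 16 (12.5%) after FL-NfL, 0 of 16 (0.0%) after CC-NfL, 0 of 16 (0.0%) between the proteins and 2 of 16 (12.5%) for both proteins. The unadjusted p of NPC was 0.530 or more in each of the 4 contrasts. The 3 contrasts against vehicle share the vehicle libraries. At an unadjusted p under 0.05 limma had 3 classes for CC-NfL against vehicle and 1 between the proteins, and a quasi-binomial model had 5 and 1. After adjustment both models called 0 in these 2 contrasts.

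Without the libraries numbered 1 the standard errors were smaller and no contrast passed. FL-NfL against vehicle was then 0.76 (SE 0.51, adjusted p = 0.816), CC-NfL against vehicle 0.78 (SE 0.51, adjusted p = 0.645), FL-NfL against CC-NfL -0.03 (SE 0.56, adjusted p = 0.962) and both proteins against vehicle 0.77 (SE 0.43, adjusted p = 0.670). Within batch b1 NPC averaged 8.04% after FL-NfL, 11.5% after CC-NfL and 9.73% after vehicle, from 2 libraries each. Within batch b2 they were 5.61% in the single FL-NfL library and 5.88% in the single CC-NfL library, and averaged 2.40% over 2 vehicle libraries. In b2 both protein libraries lay above both vehicle libraries, while in b1 the groups overlapped. Over all libraries batch b2 held 4.07% ± 1.99 NPC (n = 4) and batch b1 9.76% ± 8.17 (n = 6), a log2 odds ratio of -0.85 (SE 0.88, adjusted p = 0.720), with 1 of 16 classes (6.25%) called between batches.

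The spread of NPC between libraries was large beside that of most classes. After group and batch were fitted, the residual SD of the NPC log2 odds was 1.54, against a median of 0.68 over the 16 classes. Of the other classes, Reelin_neuron at 2.55 and VLMC at 1.82 were higher. Measured against counting error, the variance of NPC was 300 times what the cell numbers alone give, the highest of the 16, against a median of 21.1. This multiple grows with the number of cells counted, so it favours abundant classes.

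The 3 clusters did not share this spread equally. Clusters 10 and 25 varied widely from mouse to mouse, while cluster 14 varied far less. Cluster 10 made up 7.70%, 0.794% and 2.82% of annotated cells in FL-NfL libraries 1 to 3 and 10.3%, 0.116% and 3.42% in CC-NfL libraries 1 to 3, against 9.22%, 0.395%, 0.287% and 1.55% in vehicle libraries 1 to 4. Its highest share was 88.8 times its lowest. The lowest rested on 7 cells among 6025 in CC-NfL library 2, with an exact interval of 0.0467% to 0.239%. The SD of its log2 odds over all 10 libraries was 2.29, the largest of 31 clusters with at least 10 cells per library on average, where the median cluster had 0.93.

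Cluster 25 made up 5.24%, 0.921% and 1.77% of annotated cells in FL-NfL libraries 1 to 3 and 9.25%, 1.01% and 1.63% in CC-NfL libraries 1 to 3, against 6.22%, 0.395%, 0.379% and 0.852% in vehicle libraries 1 to 4. Here too the libraries numbered 1 were the highest of their groups, and without them both proteins' libraries lay between 0.921% and 1.77%, above the remaining vehicle libraries. The closest, FL-NfL library 2 and vehicle library 4, had overlapping exact binomial intervals of 0.617% to 1.32% and 0.671% to 1.07%. That separation was not tested. The highest share was 24.4 times the lowest, and the SD of 1.65 ranked sixth of the 31 clusters.

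Cluster 14 made up 0.592%, 0.825% and 1.02% of annotated cells in FL-NfL libraries 1 to 3 and 0.971%, 1.39% and 0.842% in CC-NfL libraries 1 to 3, against 1.32%, 1.91%, 1.16% and 0.580% in vehicle libraries 1 to 4. The libraries numbered 1 did not stand apart: FL-NfL library 1 was the lowest of its group, and CC-NfL library 1 and vehicle library 1 lay within theirs. The highest share was 3.30 times the lowest, and the SD of 0.54 ranked 26th of 31. The libraries numbered 1 supplied 17.1% of the cells of cluster 14, close to their 18.0% of annotated cells, against 52.7% of cluster 10 and 57.2% of cluster 25. The difference in spread between the clusters was not tested.

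**Figure D2:**
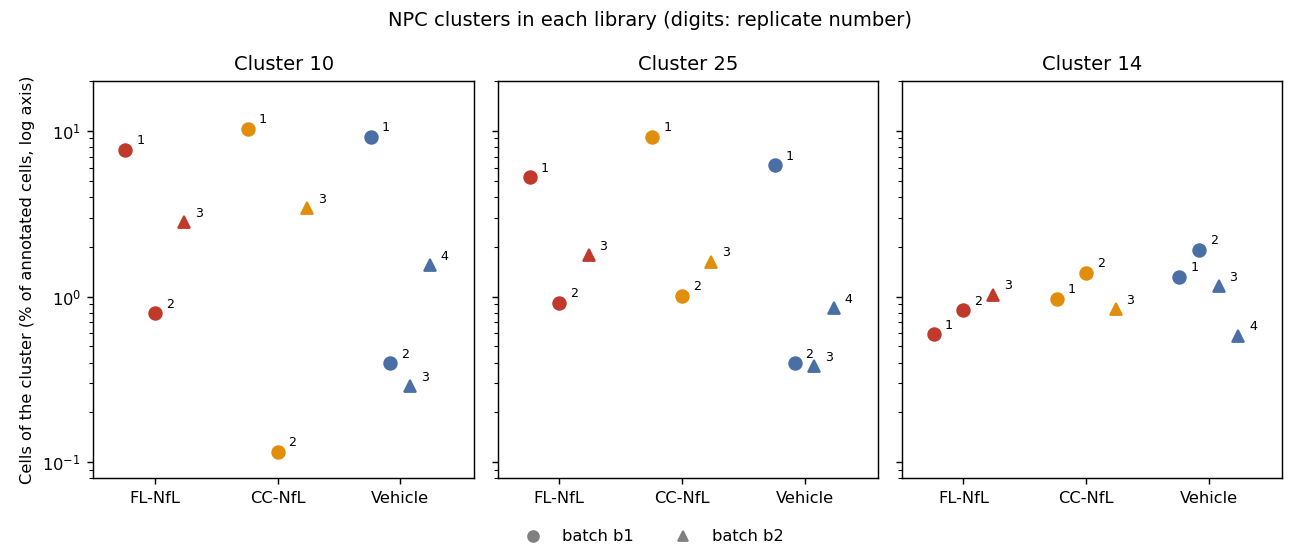
Each point is 1 library, and the log axis gives the cells of a cluster as a percentage of annotated cells, with the replicate number beside the point and the batch as the symbol. Clusters 10 and 25 span 0.116% to 10.3% and 0.379% to 9.25%, and cluster 14 spans 0.580% to 1.91%.

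Which cluster dominated the NPC of a mouse followed from this. Cluster 14 made up 4.38%, 32.5% and 18.2% of NPC in FL-NfL libraries 1 to 3 and 4.73%, 55.3% and 14.3% in CC-NfL libraries 1 to 3, against 7.86%, 70.8%, 63.5% and 19.5% in vehicle libraries 1 to 4. It was the largest cluster in CC-NfL library 2 and in vehicle libraries 2 and 3, and the smallest in the other libraries except FL-NfL library 2, where the 3 clusters held 25, 26 and 29 cells. Cluster 10 took 56.9%, 31.3% and 50.2% of NPC in FL-NfL libraries 1 to 3 and 50.2%, 4.61% and 58.1% in CC-NfL libraries 1 to 3, against 55.0%, 14.6%, 15.7% and 51.9% in vehicle libraries 1 to 4. Cluster 25 took 38.7%, 36.3% and 31.6% of NPC in FL-NfL libraries 1 to 3 and 45.0%, 40.1% and 27.6% in CC-NfL libraries 1 to 3, against 37.1%, 14.6%, 20.8% and 28.6% in vehicle libraries 1 to 4. For each cluster the ranges of the 3 groups overlapped.

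**Figure D3:**
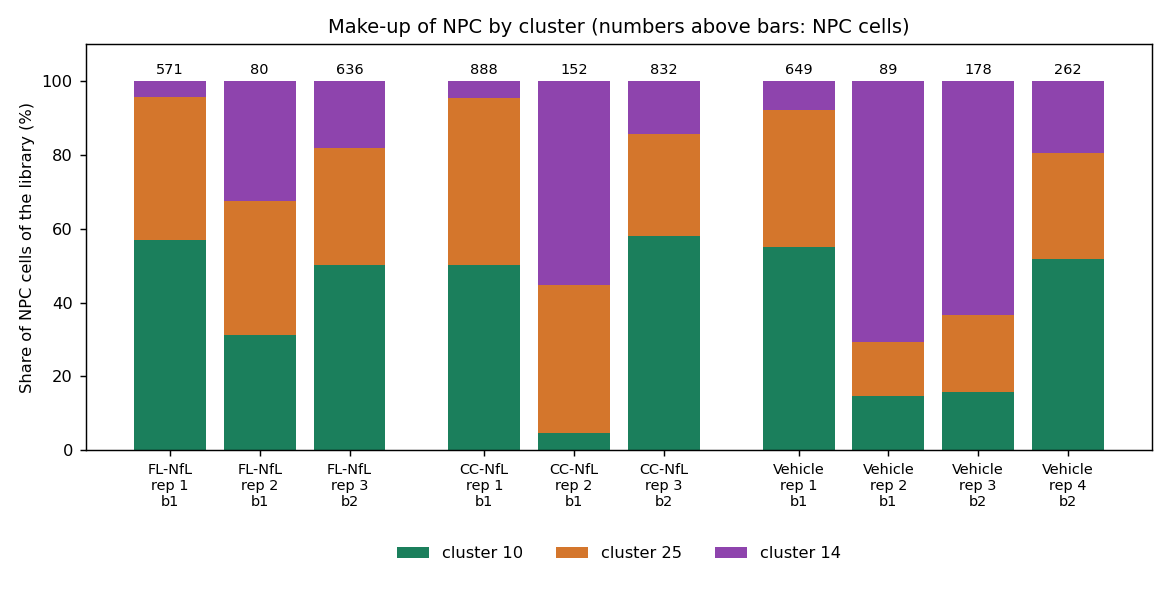
Bars give the 3 clusters as percentages of the NPC of a library, with the number of NPC above each bar and the libraries ordered by group. Cluster 14 takes 4.38%, 4.73% and 7.86% in the libraries numbered 1 of FL-NfL, CC-NfL and vehicle and 55.3%, 70.8% and 63.5% in CC-NfL replicate 2, vehicle replicate 2 and vehicle replicate 3.

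In limma with treatment and batch as terms, no NPC cluster passed for treatment as a share of NPC. The log2 odds of each cluster within its class were fitted in limma over 22 clusters of the classes that hold more than 1. Shares within a class sum to a fixed total, so the 3 clusters are not independent. Cluster 25 averaged 35.5% ± 3.61 of NPC after FL-NfL, 37.6% ± 8.97 after CC-NfL and 25.3% ± 9.76 after vehicle (SD, n = 3, 3 and 4). Its log2 odds ratio was 0.70 for FL-NfL (SE 0.46, adjusted p = 0.516), 0.81 for CC-NfL (SE 0.46, adjusted p = 0.267) and 0.76 for both proteins (SE 0.39, unadjusted p = 0.0906, adjusted p = 0.221). For both proteins its 95% interval ran from -0.15 to 1.66.

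Cluster 14 averaged 18.4% ± 14.1 of NPC after FL-NfL, 24.8% ± 26.8 after CC-NfL and 40.4% ± 31.4 after vehicle. The log2 odds ratios were -1.62 for FL-NfL (SE 1.56, adjusted p = 0.601), -1.28 for CC-NfL (SE 1.56, adjusted p = 0.684) and -1.45 for both proteins (SE 1.32, adjusted p = 0.515). With the replicate number as a block, an alternative given below, cluster 14 passed for both proteins (limma adjusted p = 0.0475). That block replaced batch and left vehicle replicate 4, the only library with its number, out of the contrast. Cluster 10 averaged 46.1% ± 13.3, 37.6% ± 28.9 and 34.3% ± 22.1 after FL-NfL, CC-NfL and vehicle. Its log2 odds ratios were 1.03 for FL-NfL (SE 1.25, adjusted p = 0.680), 0.00 for CC-NfL (SE 1.25, adjusted p = 0.999) and 0.51 for both proteins (SE 1.06, adjusted p = 0.810). FL-NfL over CC-NfL gave 1.03, -0.34 and -0.11 for clusters 10, 14 and 25, and the adjusted p was 0.840 for all 3. Without the libraries numbered 1, both proteins against vehicle gave 0.75 for cluster 10 (SE 0.87, adjusted p = 0.653), -1.70 for cluster 14 (SE 0.73, unadjusted p = 0.0515, adjusted p = 0.308) and 0.94 for cluster 25 (SE 0.49, adjusted p = 0.308). For cluster 14 alone, FL-NfL then gave -1.93 (SE 0.87, adjusted p = 0.650) and CC-NfL -1.47 (SE 0.87, adjusted p = 0.322). For clusters 10 and 25, FL-NfL then gave 1.43 and 0.96 (adjusted p = 0.650 for both), and CC-NfL 0.08 (adjusted p = 0.942) and 0.93 (adjusted p = 0.322). In limma with treatment and batch as terms over all 10 libraries, calls numbered 0 of 22 clusters (0.0%) in each of these 4 contrasts and between the batches. At an unadjusted p under 0.05 there were 2 clusters after FL-NfL, 8 after CC-NfL, 0 between the proteins, 8 for both proteins and 4 between batches, and no NPC cluster was among them. A quasi-binomial model called 0 clusters after FL-NfL, 6 after CC-NfL, 0 between the proteins, 3 for both proteins and 0 between batches, again without an NPC cluster.

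**Figure D4:**
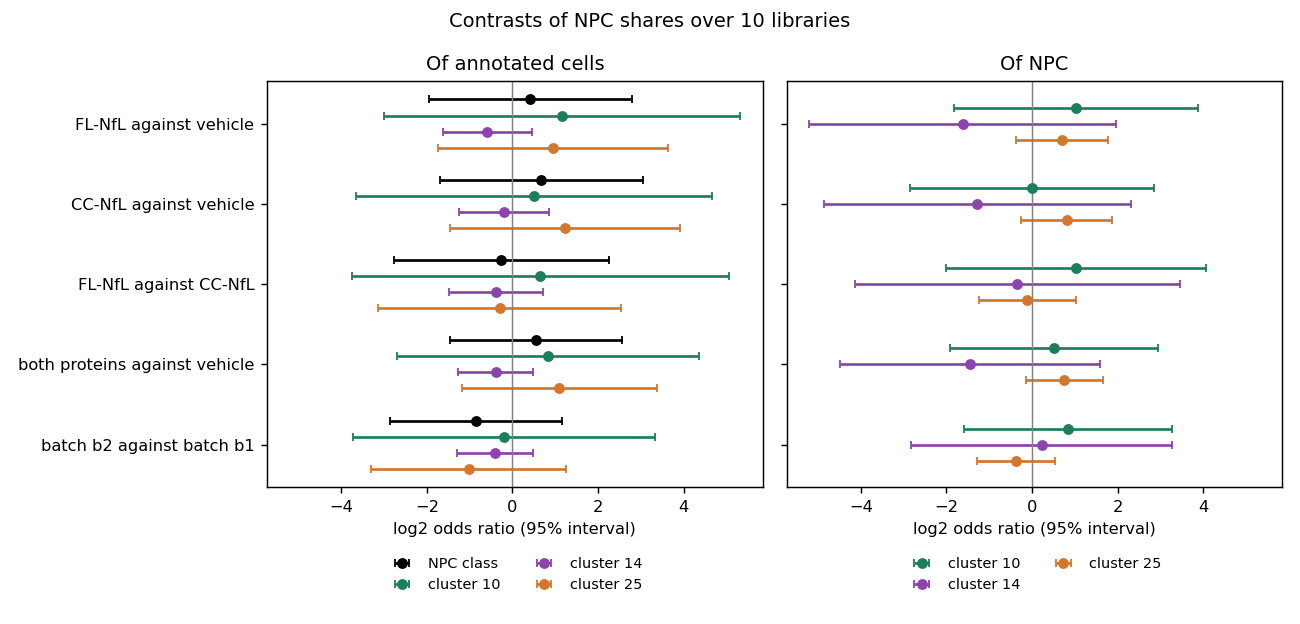
Points are log2 odds ratios from limma with 95% intervals over 10 libraries, for NPC and its clusters as shares of annotated cells (left) and for the clusters as shares of NPC (right). Every interval includes 0, and those of cluster 14 of annotated cells are the narrowest in the left panel, for FL-NfL from -1.63 to 0.46.

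As shares of all annotated cells, the same clusters gave no call in a fit over 31 clusters, of which limma called 2 (6.45%) after FL-NfL, 0 (0.0%) after CC-NfL, 0 (0.0%) between the proteins, 1 (3.23%) for both proteins and 2 (6.45%) between batches. For both proteins against vehicle, cluster 10 had a log2 odds ratio of 0.84 (SE 1.54, adjusted p = 0.809), cluster 25 of 1.09 (SE 0.99, adjusted p = 0.590) and cluster 14 of -0.39 (SE 0.39, adjusted p = 0.590). The interval for cluster 14, -1.28 to 0.49, was the narrowest of the 3.

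Within the neuronal lineage, NPC were set against the neurons that the annotation names Neuron and Reelin_neuron. In the hippocampus reelin marks Cajal-Retzius cells and some interneurons. NPC made up 72.4%, 30.8% and 39.6% of these 3 classes in FL-NfL libraries 1 to 3 and 69.2%, 22.2% and 31.8% in CC-NfL libraries 1 to 3, against 83.7%, 18.9%, 14.6% and 31.6% in vehicle libraries 1 to 4. NPC outnumbered both kinds of neuron together in the 3 libraries numbered 1 and in no other library. FL-NfL library 1 held 2.63 NPC for each cell named Neuron, CC-NfL library 1 held 2.32 and vehicle library 1 held 8.01, while the other libraries held 0.190 to 0.683. The mean share was 47.6% ± 21.9 after FL-NfL and 37.2% ± 31.9 after vehicle, with an exact two-sided permutation p of 0.60. It was 41.0% ± 24.8 after CC-NfL, with an exact permutation p of 0.771 against vehicle. Between the proteins the exact permutation p was 0.60, where 3 libraries against 3 cannot go below 0.10, and for both proteins against vehicle it was 0.643. All 4 had an adjusted p of 0.771. Without the libraries numbered 1 the means were 35.2% after FL-NfL, 27.0% after CC-NfL and 21.7% after vehicle, from 2, 2 and 3 libraries. FL-NfL then lay 13.5 points above vehicle (exact permutation p = 0.30) and CC-NfL 5.30 points above it (exact permutation p = 0.50), where the smallest p such groups allow is 0.10. Both proteins lay 9.39 points above vehicle (exact permutation p = 0.171), and FL-NfL 8.18 points above CC-NfL (exact permutation p = 0.667, where 0.333 is the smallest possible).

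Classes that line the ventricle were read beside NPC because the second progenitor niche lies there. Choroid cells made up 2.87%, 11.1% and 3.60% of annotated cells in FL-NfL libraries 1 to 3 and 3.28%, 7.80% and 9.62% in CC-NfL libraries 1 to 3, against 15.4%, 3.47%, 12.1% and 2.93% in vehicle libraries 1 to 4. Among the libraries numbered 1, choroid cells were thus the highest of all in vehicle and the lowest of their group in FL-NfL and CC-NfL. Ependymal cells made up 0.924%, 0.857% and 0.892% in FL-NfL libraries 1 to 3 and 0.278%, 0.465% and 0.700% in CC-NfL libraries 1 to 3, against 1.03%, 0.395%, 1.23% and 1.31% in vehicle libraries 1 to 4. Neither class was highest wherever NPC were highest. Over the 10 libraries NPC had r = -0.07 with choroid cells (permutation p = 0.866; rho = -0.14, permutation p = 0.707) and r = -0.09 with ependymal cells (permutation p = 0.778; rho = -0.15, permutation p = 0.685), an analysis added after seeing the data, with NPC as a log2 ratio to other cells and each class as log2 odds among cells outside the NPC class. Batch b2 held too few libraries for such a value. Adjusted over 17 such relations, p was 0.866 for r and 0.974 for rho. Within the 6 libraries of batch b1, r was -0.05 for choroid and 0.24 for ependymal cells (exact permutation p = 0.878 and 0.722). Without the 2 libraries farthest from the NPC median, r was -0.45 and 0.18.

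On the deposited t-SNE map, NPC formed separate groups rather than a single one. For an NPC, 99.9% of the 30 nearest annotated cells were NPC, and the remaining 0.0892% were all astrocytes of cluster 26. Neighbours of the same cluster made up 99.2% for cluster 10, 97.5% for cluster 14 and 97.9% for cluster 25. Clusters and map positions rest on the same cells' values, so these shares are a description and no test of distinctness. Other classes were not measured in this way. The centres of clusters 14 and 25 lay 7.49 map units apart, whereas the centre of cluster 10 lay 22.8 from that of cluster 25 and 22.9 from that of cluster 14. The median distance of cluster 10 cells to their own centre was 2.89 units. The nearest centres to cluster 10 were those of Neuron cluster 7 at 6.29, astrocyte cluster 26 at 6.53 and choroid cluster 18 at 8.25. For cluster 14 the nearest was oligodendrocyte cluster 13 at 7.42, ahead of cluster 25. For cluster 25 the nearest was cluster 14, followed by VLMC cluster 22 at 7.64 and Other_immune_cells cluster 29 at 8.25. Distances between groups on a t-SNE map do not measure how alike cells are.

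A minority of cluster 10 lay away from its main group. Of 2139 cells, 94 were nearer to the centre of cluster 25 than to their own and 41 were nearer to that of cluster 14, together 6.31%. By neighbours, 13 cells of cluster 10 (0.608%) had mostly cells of other clusters among their 30 nearest annotated cells. Cells nearer to another NPC centre were 5.80% to 7.69% in libraries with over 100 cells in the cluster, in all 3 groups. There were 4 of 25 in FL-NfL library 2, 1 of 7 in CC-NfL library 2, and 0 of 13 and 0 of 28 in vehicle libraries 2 and 3. For cluster 14 the share nearer to another NPC centre was 4.78%, all towards cluster 25, and for cluster 25 it was 0.332%. Of all NPC, 4 cells, each of cluster 25, had most of their neighbours in another class.

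**Figure D5:**
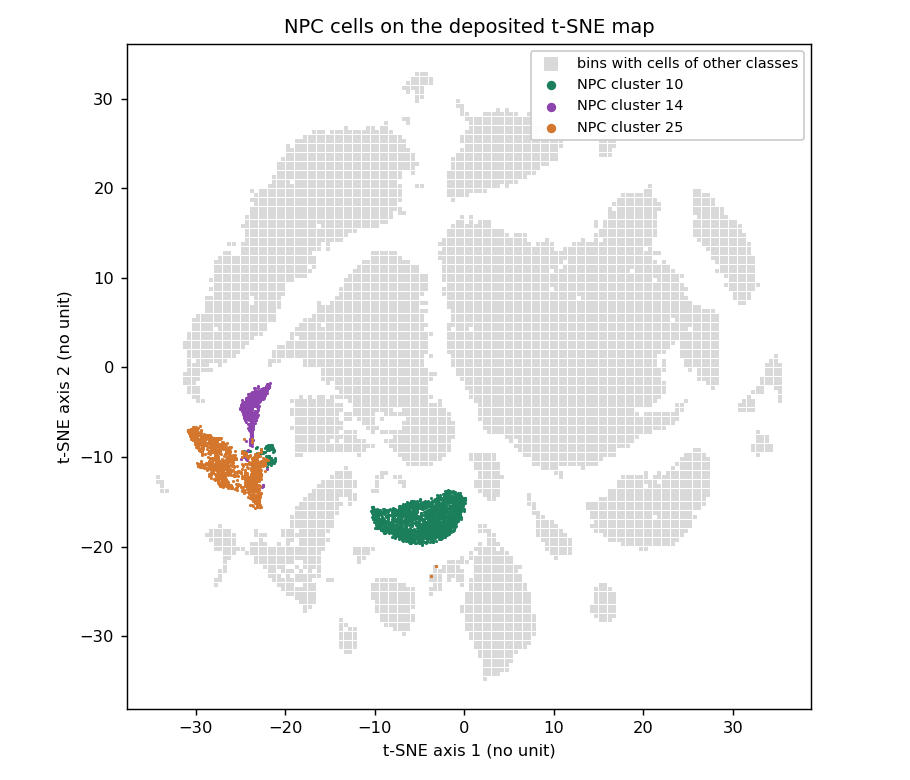
Coloured points are the 4337 NPC at their deposited t-SNE positions (no unit) by cluster, and grey squares are map bins that hold cells of other classes. Clusters 14 and 25 adjoin at the left, and cluster 10 forms a group of its own 22.8 units from cluster 25. A small set of cluster 10 cells lies nearer to the centre of cluster 25 or 14 than to its own.

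No grouping of NPC by treatment on the map passed the test. Among the 30 nearest NPC of each NPC, the cells of every library were counted and set against the number expected from its size. As a log2 ratio, this enrichment averaged -0.04 for the 12 library pairs within a group and 0.00 for the 33 pairs across groups. The difference of -0.04 had an exact one-sided permutation p of 0.457, with labels permuted within batch. Without the libraries numbered 1 it was -0.04 (exact one-sided permutation p = 0.389). Across groups, 9 pairs with the same replicate number averaged 0.43 and 24 pairs with different numbers -0.16, a contrast that was not tested. Values of the same-numbered pairs ran from 0.74 to 1.43 for number 2, but from 0.14 to 0.20 for number 1 and from -0.06 to 0.23 for number 3. The highest value between different libraries, 1.56, was that of vehicle library 2 among the neighbours of vehicle library 3, both of which hold mainly cluster 14. With neighbours and expectation taken within a cluster, an alternative chosen after seeing the data, the difference between same and different groups was -0.01 (exact one-sided permutation p = 0.413). The median position of a cluster in a library lay within 1.79 map units of the cluster's centre in all but 1 case, the 7 cells of cluster 10 in CC-NfL library 2 at 4.91.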

How the data were processed

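Both hippocampi were dissociated in the presence of actinomycin D and live cells were sorted, per the labels' protocols. Cell Ranger 6.0.1 and the build GRCm38 are named in the submitters' processing notes. How the authors filtered cells, treated doublets, clustered, named and mapped them is not given in the sources used here. As deposited, the table lists cluster numbers and class names, and its map positions are scores without a unit. Of 108266 barcodes, 68914 carried a class, and their condition and batch matched the labels in all cases. The other barcodes were left out, and they were unevenly spread. Barcodes with a class were 28.7% in FL-NfL library 1, 47.0% to 58.0% in the other b1 libraries and 79.3% to 82.7% in the b2 libraries. Shares of annotated cells therefore rest on different fractions of the barcodes of each library.

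Cells were counted per library, the unit of replication. Log2((cells + 0.5) / (other cells + 0.5)) was modelled on treatment and batch using limma 3.58.1 in R 4.3.3, for classes or clusters averaging at least 10 cells a library, and an adjusted p under 0.05 was called. Limma and map scripts were tested on simulated data that varied less between libraries than NPC did. How often they would detect a change at the observed spread was not measured. Permutation tests, map neighbours and binomial intervals used scipy 1.17.1 with numpy 2.4.6. Every NPC cluster is named. Other classes are named as nearest map centres or neighbours, neuronal lineage or ventricle lining, and Reelin_neuron and VLMC in the comparison of spread, where VLMC was chosen after its value was seen. Members, lists and tests were chosen with earlier results of these data known. P-values are two-sided except in the map test. Alternatives included other models and scales, a replicate block, single batches and leaving out libraries.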

Additional observations from a re-analysis of the deposited data

Results flagged for a closer look

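Vehicle was the one group with enough libraries (n = 4) for a check for a library far from the others, and vehicle replicate 1 stood out in 3 of 9 NPC values. Chance flags about 1 in 20 groups, but the 3 values overlap, since most NPC belong to clusters 10 and 25, and they count as 1 observation. It held 16.8% NPC, with the other 3 vehicle libraries at 1.82% to 2.98%. It also held 9.22% cells of cluster 10, against 0.287% to 1.55%, and 6.22% cells of cluster 25, against 0.379% to 0.852%. Its share of cluster 14, at 1.32%, lay within the range of the other vehicle libraries. FL-NfL and CC-NfL, with 3 libraries each, were not checked in this way.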

How the results depend on the processing

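Of 483 recomputations of 25 results, 435 kept direction and side of the threshold, 47 changed sign without passing and 1 passed. With the replicate number as a block, cluster 14 as a share of NPC gave -1.87 for both proteins against vehicle (limma adjusted p = 0.0475, against 0.515 without it; 0.0475 to 0.932 over its alternatives), and cluster 10 after CC-NfL gave 0.27. Clusters called over all classes for both proteins then numbered 3, against 0. In that fit the replicate number took the place of batch. Vehicle replicate 4, the only library with its number, was fitted exactly, so contrasts against vehicle rested on vehicle replicates 1 to 3. The labels do not say whether the replicate number pairs libraries. The log2 odds of the 16 classes, less their group means, were correlated between libraries of different groups. Correlations of same-numbered libraries ran from -0.13 to 0.54 over 9 pairs, 7 of them over 0.1. Those of libraries with different numbers ran from -0.69 to 0.67 over 24 pairs, and 4 of 10 libraries correlated best with their own number. How many would do so by chance was not computed. Whether the block is warranted was not tested.

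Cluster 10 of NPC after CC-NfL, at 0.00, changed sign to 0.26 in a quasi-binomial model, 0.033 on an arcsine scale, 0.0093 with 1 added, 0.077 without the libraries numbered 1 and 0.51 as a share of annotated cells. Within batch b1 the NPC share gave -0.23 for FL-NfL and -0.050 for both proteins, and cluster 10 of NPC -0.14 for both. Without the libraries numbered 1, batch b2 over b1 gave 0.65 for the NPC share, -1.95 for cluster 14 and 0.019 for cluster 25 of NPC, and FL-NfL over CC-NfL gave 0.022 for cluster 25. Between batches, cluster 14 gave -0.011 on an arcsine scale and -0.40 as a share of annotated cells, and cluster 10 -0.19 as such a share. Map mixing was 0.011 with libraries thinned to 80 cells. The cause was not tested in these cases.

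Leaving out 1 library at a time, the NPC share ran from -0.10 to 1.23 for FL-NfL, -0.072 to 1.59 for CC-NfL and -1.24 to 0.57 for FL-NfL over CC-NfL. Of NPC, cluster 10 ran from -0.94 to 1.37 for CC-NfL, -0.44 to 1.87 between proteins and -0.050 to 1.33 for both. Cluster 14 ran from -1.44 to 1.04 between proteins and -0.63 to 0.97 between batches, and cluster 25 from -0.38 to 0.071 between proteins. Differences in lineage share ran from -2.04 to 25.9 points for FL-NfL, -10.2 to 19.4 for CC-NfL, -5.88 to 20.6 between proteins and -0.45 to 22.6 for both. Map mixing ran from -0.15 to 0.13. None passed.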

Other observations

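Across libraries, clusters 10 and 25 varied together, a relation looked for after their values were seen. As log2 ratios to cells outside the NPC class, they had Pearson's r = 0.88 (permutation p = 0.00100, adjusted over 3 pairs of clusters 0.00300) and Spearman's rho = 0.85 (permutation p = 0.00284, adjusted 0.00852) over 10 libraries. Without the 2 libraries farthest from the median of cluster 10, CC-NfL replicate 2 and vehicle replicate 3, r was 0.97. The libraries numbered 1 stayed in that value. Within the 6 libraries of batch b1, r was 0.90 (exact permutation p = 0.0472) and rho 0.83 (exact permutation p = 0.0583), and batch b2 held too few libraries. Without the libraries numbered 1 the relation did not pass (r = 0.65, exact permutation p = 0.125, n = 7). Fewer libraries and the part of those libraries in the relation cannot be told apart here.

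For cluster 14 neither relation passed over 10 libraries. It had r = -0.26 (permutation p = 0.462, adjusted 0.693) and rho = -0.13 (permutation p = 0.734) against cluster 10. Against cluster 25 it had r = -0.08 (permutation p = 0.820) and rho = 0.05 (permutation p = 0.891). Without the libraries numbered 1, r was -0.59 (exact permutation p = 0.164) and -0.43 (exact permutation p = 0.338), n = 7. Within batch b1 r was -0.32 for both. Without the 2 libraries farthest from the median of the other cluster, r was -0.09 and -0.56. The ratio of cluster 10 to cluster 25 cells lay between 0.757 and 2.10 in 9 libraries and was 0.115 in CC-NfL replicate 2, which held 7 cells of cluster 10 and 61 of cluster 25. The NPC share was set against 15 other classes and 2 measures of depth, and none of the 17 relations passed (adjusted permutation p = 0.866 for Pearson's r and 0.974 for Spearman's rho). Within the 6 libraries of batch b1, astrocytes had r = 0.92 (exact permutation p = 0.0167, unadjusted) and rho = 0.83 (exact permutation p = 0.0583). Over all 10 libraries r was 0.28 for astrocytes (permutation p = 0.432), and without the libraries numbered 1 it was 0.10 (exact permutation p = 0.810, n = 7). Without those libraries, Reelin_neuron had rho = -0.82 (exact permutation p = 0.0341, unadjusted) but r = -0.21 (exact permutation p = 0.579). Over all 10 libraries its rho was -0.33 (permutation p = 0.348). Both classes were named here after the values were seen.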
